A study of Mus musculus with 12 samples.

Results

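Of 296 mouse microRNA loci with a probe set of their own on a whole-transcript gene array, 98 had a mean log2 value of 8 or more in at least one of 4 groups of sorted cortical neurons, and their signals are described here across the groups. The groups were GABAergic interneurons at postnatal day 0 (IN P0) and 10 (IN P10) and glutamatergic pyramidal cells at postnatal day 0 (Pyr P0) and 12 (Pyr P12), each with 3 arrays of biological replicates A, B and C. All mice were of the C57BL6 strain and carried the RCE:LoxP reporter, in which Cre switches on GFP. Interneurons were GFP+ cells from Nkx2-1Cre;RCE cortices, and Nkx2-1Cre acts in progenitors of the medial ganglionic eminence, which also give rise to some oligodendrocyte precursors. Pyramidal cells were GFP+ cells from NexCre;RCE somatosensory cortices, and NexCre acts in postmitotic glutamatergic neurons. The cells were isolated by FACS from papain-dissociated tissue, and the labels do not say how many animals gave each sample. Population, Cre line and dissected area changed together, and so did population and the later age, so these cannot be told apart in comparisons between interneurons and pyramidal cells.

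The members were selected on the measured values. A probe set was taken when its single gene symbol was a microRNA gene and the mean of one group reached a log2 value of 8, and the other 198 loci stayed below this level in every group. Because the group means chose the members, counts over members are given as a description, and a test is given for a member only where all groups in the comparison had a mean of at least 8. Just inside the level were Mir297b, Mir106b and Mir425, with highest group means of 8.0, 8.01 and 8.03, and just outside were Mir409, Mir370 and Mir195a, with 7.98, 7.87 and 7.87. The level was reached by 33.1% of the microRNA loci and by 60.9% of all probe sets with a gene symbol. Receptors of smell and pheromones, which cortical neurons should lack, served as a background: the level under which 95% of their 1208 probe sets lay was 7.13 to 7.45 on the 12 arrays, and 19 of them (1.57%) reached a group mean of 8. In all, 62 of the 98 members were at or above 8 in all 4 groups, 8 in 3 groups, 13 in 2 groups and 15 in 1 group. In 10 members at least one group had no array above background.

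MicroRNAs are short RNAs that repress messenger RNAs by pairing with them, mostly through the seed at bases 2 to 8. They are cut from a longer primary transcript by Drosha and Dgcr8 in the nucleus, and the released hairpin is exported and cut again by Dicer1 before one strand is loaded into an Argonaute protein. Many lie in introns or exons of a host gene or are transcribed together in clusters. The array reports RNA that carries the locus sequence, which can be the primary transcript, the precursor or the host transcript, so the values below are not levels of the mature microRNA. In samples of many cells, fewer expressing cells and less RNA per cell cannot be told apart.

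The mature sequences of the loci that carry the differences are shown from RefSeq (GRCm38.p6), with the seed in capitals. RefSeq sequences were found for 87 of the 98 members. The first set holds groups of microRNAs that each share a seed, and is shown because loci within a group differed in how they behaved with age.
mmu-miR-181b-5p: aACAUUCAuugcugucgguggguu
mmu-miR-181c-5p: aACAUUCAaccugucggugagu
mmu-miR-181d-5p: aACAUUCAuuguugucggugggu
mmu-let-7c-5p: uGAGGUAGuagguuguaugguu
mmu-let-7e-5p: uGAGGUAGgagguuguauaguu
mmu-let-7i-5p: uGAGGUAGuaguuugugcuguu
mmu-miR-99a-5p: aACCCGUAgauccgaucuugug
mmu-miR-99b-5p: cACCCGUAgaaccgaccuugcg
mmu-miR-125a-5p: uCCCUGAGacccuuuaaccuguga
mmu-miR-125b-5p: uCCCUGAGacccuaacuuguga

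The next set holds microRNAs of neurons and the remaining loci with large differences. For miR-9 and for miR-128 the same mature sequence is encoded by both member loci, and the array has a probe set for each locus. The positions of the probes within the loci are not given, and whether a probe set also reads the other locus was not tested.
mmu-miR-9-5p (Mir9-1 and Mir9-3): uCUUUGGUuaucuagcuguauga
mmu-miR-128-3p (Mir128-1 and Mir128-2): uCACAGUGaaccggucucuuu
mmu-miR-137-3p: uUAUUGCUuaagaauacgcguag
mmu-miR-7a-5p (Mir7-1): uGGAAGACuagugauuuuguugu
mmu-miR-505-3p: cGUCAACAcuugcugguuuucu
mmu-miR-15a-5p: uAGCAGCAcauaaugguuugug

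The last set comes from the Dlk1 to Dio3 imprinted domain, where neighbouring loci with different seeds were higher at the later age.
mmu-miR-539-5p: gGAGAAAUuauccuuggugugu
mmu-miR-487b-5p: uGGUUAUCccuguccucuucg
mmu-miR-300-3p: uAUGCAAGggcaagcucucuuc
mmu-miR-382-5p: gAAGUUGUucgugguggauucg
mmu-miR-377-3p: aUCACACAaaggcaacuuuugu
mmu-miR-134-5p: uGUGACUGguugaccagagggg

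Before the results, the sorted cells were checked against marker genes. The mean log2 value of 5 interneuron markers was 12.34 to 12.54 on the interneuron arrays and 7.71 to 9.35 on the pyramidal arrays. That of 4 pyramidal markers was 11.91 to 12.00 on the pyramidal arrays, 9.47 to 10.02 in IN P0 and 7.70 to 7.78 in IN P10. Markers of oligodendrocyte precursors were at 9.61 to 10.62 on the interneuron arrays and 7.73 to 8.08 on the pyramidal arrays, and 4 markers of myelinating oligodendrocytes were at 9.11 to 9.49 in IN P10 and at most 7.90 elsewhere. The list means for astrocytes, microglia, endothelial, mural, erythroid and cycling cells stayed at or below 7.56 on every array, but single markers in them were higher. The astrocyte marker Slc1a3 had a mean of 8.85 in IN P0, and Aldh1l1 went from 7.17 in Pyr P0 to 8.46 in Pyr P12. The microglia marker Cx3cr1 had group means of 8.0 to 8.35. The mean of the cycling list was 7.54 to 7.56 in IN P0 and at most 7.28 elsewhere. The part of these other cells, and of RNA of the other neuron population, in the microRNA differences was not tested.

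Most members had similar values in the 4 groups. The 4 group means spanned less than 1.5-fold in 58 of the 98 members, the median span was 0.43 on the log2 scale, and 77 members were called in no comparison of 2 groups. A call needed an adjusted p under 0.05 in limma and a difference of more than 2-fold. Mir143, a microRNA known from mural and smooth muscle cells, had group means of 8.06 to 8.08, and Mir375, known from endocrine cells, of 8.35 to 8.71. The remaining 25 of 27 loci listed as typical of other tissues were below 8 in every group. The 21 members called in at least one comparison are visible at the top and bottom of the plot of all members by array.

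**Figure D1:**
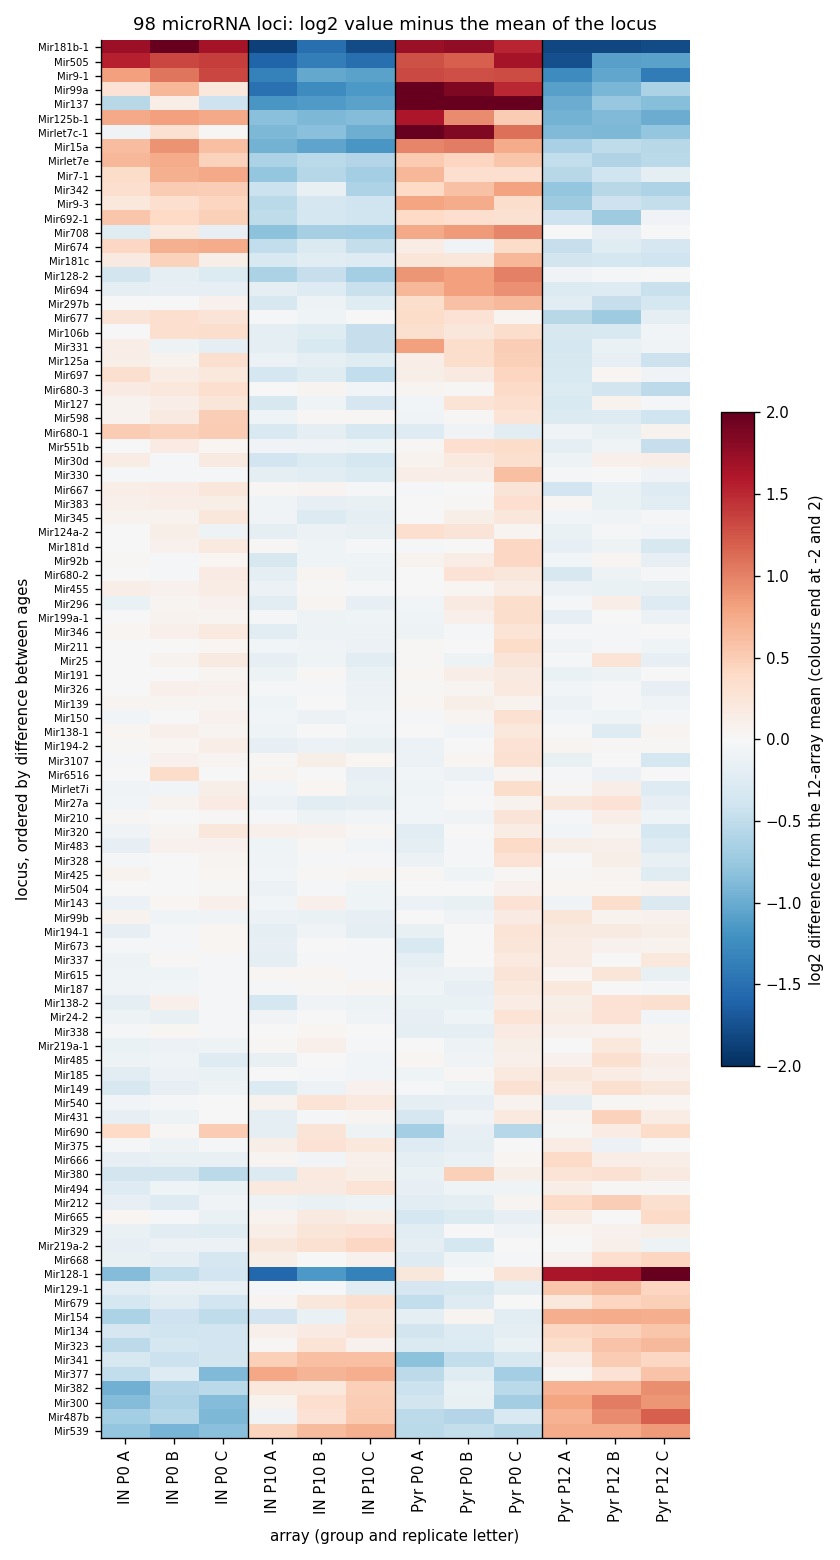
Log2 value of each of the 98 microRNA loci (rows) on each of the 12 arrays (columns), minus the 12-array mean of the locus; rows are ordered by the difference between the later and the earlier age, and colours end at -2 and 2. Strong colours are seen in few loci: Mir181b-1, Mir505 and Mir9-1 are red at P0 and blue at the later age in both populations, and Mir128-1 is deep red in Pyr P12.

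Between P0 and the later age, the largest differences among members were lower values at the later age. In interneurons, 9 members (9.18%) were called lower at P10 and 4 (4.08%) higher, where 2.85% and 4.19% of all 22961 tested probe sets were called lower and higher. In pyramidal cells, 12 members (12.2%) were called lower at P12 and 5 (5.10%) higher, where 3.48% and 5.68% of all probe sets were. Among the 13988 probe sets that reached the same level of 8 in a group, 4.50% were called lower and 6.83% higher in interneurons, and 5.55% and 9.07% in pyramidal cells, so members were called lower more often and higher less often than these by count; the difference was not tested. The median log2 difference of the members was -0.12 in interneurons and -0.08 in pyramidal cells, against 0.002 and 0.063 for all tested probe sets. In both populations 7 members were called lower and 3 were called higher.

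Mir181b-1, a locus on chromosome 1 (chr1:137966639-137966718, + strand, GRCm38.p6), had the largest difference with age in both populations. Its log2 values were 11.16, 11.62 and 11.10 in IN P0 and 7.58, 7.94 and 7.66 in IN P10. They were 11.17, 11.22 and 10.96 in Pyr P0 and 7.62, 7.62 and 7.66 in Pyr P12. The later groups were thus just above the background level, with no overlap with P0, and the group means were 11.9-fold lower in interneurons and 11.2-fold lower in pyramidal cells. The other loci with the seed ACAUUCA differed less. Mir181c fell by 0.51 ± 0.11 on the log2 scale in interneurons and by 0.75 ± 0.11 in pyramidal cells (SE, n = 3 per group; limma adjusted p = 0.00119 and 4.15e-05), both less than 2-fold. For Mir181d the log2 differences were -0.13 ± 0.10 and -0.32 ± 0.10 (limma adjusted p = 0.377 and 0.0173). Mir181a-1, no member, had group means of 5.56 to 6.89. Mir181b-2, also no member, had fitted log2 differences, which are no bounds, of -1.32 in interneurons and -0.38 in pyramidal cells. Those of Mir181a-2, no member either, were -0.42 and -0.08.

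Mir9-1 encodes miR-9, which is abundant in neural progenitors and young neurons. Its log2 values were 11.20, 11.44 and 11.72 in IN P0 and 9.02, 9.35 and 9.31 in IN P10, and 11.70, 11.67 and 11.68 in Pyr P0 and 9.12, 9.33 and 8.98 in Pyr P12. All 3 arrays of each P0 group were above those of the later age. The locus (chr3:88215598-88215686, + strand) fell 4.67-fold in interneurons (log2 difference -2.22 ± 0.12) and 5.82-fold in pyramidal cells (-2.54 ± 0.12; limma adjusted p = 5.58e-09 and 9.25e-10). Mir9-3, which encodes the same mature sequence, had group means of 7.94, 7.19, 8.25 and 7.08 in IN P0, IN P10, Pyr P0 and Pyr P12. It was lower at P12 than at P0 in pyramidal cells, by at least 1.84-fold since Pyr P12 was not above background.

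Mir505 and Mir15a also fell where they could be tested. Mir505 had values of 11.55, 11.33 and 11.38 in IN P0 and 8.39, 8.61 and 8.48 in IN P10, a 7.61-fold fall (limma adjusted p = 5.61e-09). In pyramidal cells it went from 11.26, 11.19 and 11.65 to 8.24, 8.90 and 8.93, a 6.40-fold fall (limma adjusted p = 8.39e-09). Both populations thus had nearly the same values at each age. Mir15a, of the miR-15 and miR-16 family known for limiting cell cycle genes, fell 2.80-fold in pyramidal cells (group means 9.61 and 8.12; limma adjusted p = 1.40e-08). In interneurons its group means were 9.40 and 7.64.

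The loci of let-7 and its cluster partners miR-99 and miR-125 were lower at the later age or did not differ by 2-fold. Mature let-7 is known to accumulate as cells leave the progenitor state and is held back by the Lin28 proteins. Of 16 measured loci of these families 7 were members, and of these 3 were called lower with age in interneurons and 4 in pyramidal cells, with 0 called higher and 0 higher at an unadjusted limma p under 0.05 in either population. None of the remaining 9 loci of these families was called with age, so 3 and 4 of all 16 were called lower, where 2.85% and 3.48% of all probe sets were. Mir99a (chr16:77598936-77599000) and Mirlet7c-1 (chr16:77599657-77599750) lie next to each other on the + strand. Mir99a was at 8.28, 8.65 and 8.20 in IN P0 and 6.50, 6.72 and 6.83 in IN P10, and at 9.98, 9.85 and 9.49 in Pyr P0 and 6.90, 7.07 and 7.35 in Pyr P12. Its P0 values were 2.63-fold lower in interneurons than in pyramidal cells (log2 difference -1.40 ± 0.15, limma adjusted p = 8.71e-06). Mirlet7c-1 passed the level only in Pyr P0, with 8.69, 8.48 and 7.74, and the other 9 arrays lay between 5.65 and 6.93, none above background. Its Pyr P0 mean was therefore at least 1.91-fold above Pyr P12 and at least 2.10-fold above IN P0.

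A further member of these families, Mir125b-1, on chromosome 9, had group means of 7.99, 6.35, 8.23 and 6.27 in IN P0, IN P10, Pyr P0 and Pyr P12, and was lower with age by at least 1.69-fold in interneurons and 1.82-fold in pyramidal cells. Mirlet7e was at 8.83 to 9.14 on the 6 arrays of P0 and 7.77 to 7.91 on the 6 arrays of the later ages, with no overlap. Members with the same seeds at other loci differed less. Mirlet7i was at 8.15 to 8.27 and Mir99b at 8.73 to 9.0 in the 4 group means, and Mir125a at 7.88 to 8.50.

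Among microRNAs of neurons, 11 of 18 measured loci were members, and they did not share a direction. Mir137, which is known to regulate neuronal maturation and dendrite growth, was high in Pyr P0 alone. Its values were 9.82, 9.60 and 9.65 in Pyr P0, 6.86, 7.55 and 7.01 in IN P0, 6.25, 6.28 and 6.34 in IN P10, and 6.42, 6.66 and 6.56 in Pyr P12. One IN P0 array was above background and no array of the later groups was. The Pyr P0 mean was at least 5.0-fold above Pyr P12 and 5.84-fold above IN P0.

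miR-128 is a brain-enriched microRNA that limits neuronal excitability, and its 2 loci lie within different genes, Mir128-1 (chr1:128202361-128202430, + strand) in R3hdm1 and Mir128-2 (chr9:112118636-112118711, - strand) in Arpp21. Mir128-1 was at 8.31, 8.69 and 8.79 in IN P0, 7.61, 8.03 and 7.82 in IN P10, 9.41, 9.19 and 9.43 in Pyr P0 and 10.81, 10.83 and 11.19 in Pyr P12. It rose 3.03-fold from Pyr P0 to Pyr P12 (log2 difference 1.60 ± 0.14, limma adjusted p = 3.53e-07), whereas the IN P10 arrays lay below those of IN P0 without overlap. IN P10 was 8.73-fold below Pyr P12, and Mir128-1 was the single member called in that comparison. Mir128-2 was at 9.21, 9.15 and 9.34 in Pyr P0 and 7.96, 8.14 and 8.05 in IN P0, a 2.27-fold difference (limma adjusted p = 2.48e-08). From Pyr P0 to Pyr P12 it fell by 0.94 ± 0.07 on the log2 scale, to 8.25, 8.31 and 8.32 (limma adjusted p = 8.33e-08, under 2-fold), so the loci of one mature sequence moved in opposite directions in pyramidal cells.

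Of the remaining microRNAs of neurons, only Mir7-1 was called in a comparison of 2 groups. Mir134, known for its role in dendritic spines, rose by 0.55 ± 0.06 on the log2 scale in interneurons and by 0.75 ± 0.06 in pyramidal cells (limma adjusted p = 4.46e-06 and 1.70e-07), both under 2-fold. Mir212, from an activity-regulated locus, rose by 0.52 ± 0.08 in pyramidal cells (limma adjusted p = 4.79e-05), with a difference of 0.05 ± 0.08 in interneurons (limma adjusted p = 0.690). Mir7-1 had group means of 8.65 and 7.36 in IN P0 and IN P10 and of 8.48 and 7.66 in Pyr P0 and Pyr P12. Its call was lower with age in interneurons, where the fitted log2 difference was -1.29, against -0.82 in pyramidal cells. Mir124a-2, of the most abundant microRNA family of the brain, had group means of 8.04 to 8.41, and Mir138-1 of 8.25 to 8.38.

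**Figure D2:**
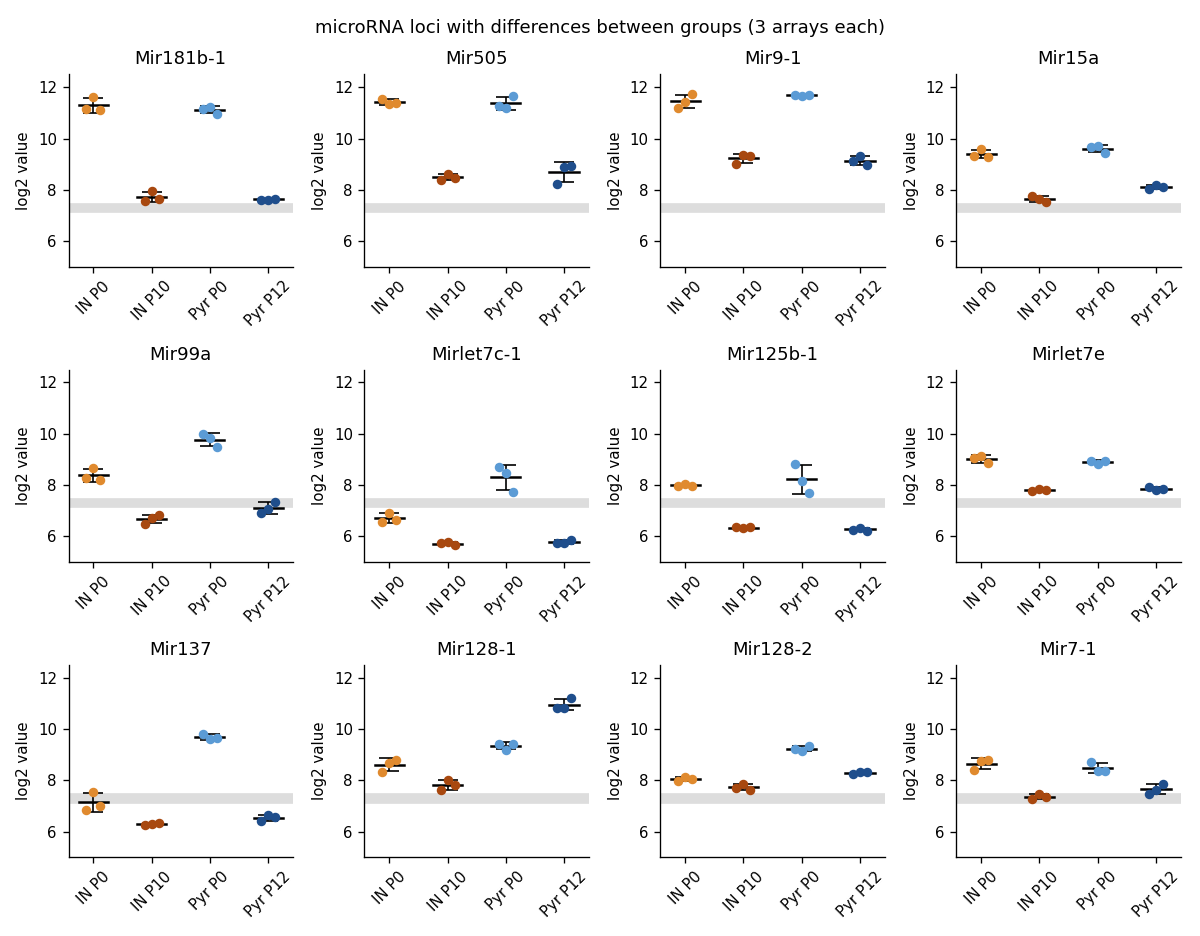
Log2 value of 12 microRNA loci on each array (points; 3 per group), with the group mean (line) and SD (bar); the grey band spans the background level of the 12 arrays. Mir181b-1, Mir505 and Mir9-1 drop in both populations, Mir137 and Mirlet7c-1 stand out in Pyr P0, and Mir128-1 is highest in Pyr P12.

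A further pair of loci that passed the test was chosen for mention after their values were seen. Mir342 fell 2.36-fold in pyramidal cells, from a mean of 9.80 to 8.57 (limma adjusted p = 8.82e-07). Mir674 fell 2.06-fold in interneurons, from 10.25 to 9.21 (limma adjusted p = 2.90e-06). In the comparison of both populations at P0, 4 members (4.08%) were called lower in interneurons, namely Mir137, Mirlet7c-1, Mir99a and Mir128-2, and 0 were called higher, where 1.74% and 1.90% of all probe sets, and 2.80% and 3.04% of those at the level of 8, were called lower and higher. At an unadjusted p under 0.05 in limma, 23 were lower and 4 higher. SAM, a permutation test named in the study's methods, could call no probe set at P0, since the smallest q value that 20 permutations allowed there was 0.0741. At the later ages 1 member (1.02%) was called lower in interneurons and 0 higher, where 2.91% and 2.65% of all probe sets, and 4.57% and 4.25% of those at the level, were. SAM also called 1 lower and 0 higher, but 11803 probe sets passed its q there, so the fold mostly set this count. At an unadjusted p under 0.05 in limma 31 were lower and 11 higher. Without the fold threshold, 16 members at P0 and 32 at the later ages passed the adjusted p in either direction. The shares of all probe sets at the unadjusted p and without the fold threshold were not counted. At P0 the median log2 difference was -0.06 for the members and -0.004 for all tested probe sets. For the later ages these medians were -0.06 and -0.071, so all probe sets were shifted by about as much as the members there. Of the 98 members, 4 were called in the contrast of the change with age in interneurons minus that in pyramidal cells, 3 higher (Mir137, Mirlet7c-1 and Mir694) and 1 lower (Mir128-1), where 2.24% and 2.63% of all probe sets, and 3.56% and 4.11% of those at the level, were called higher and lower. None of those 4 was at or above 8 in all groups, so no test is given for them. For Mirlet7c-1 no interneuron array was above background and for Mir137 only 1, in IN P0, so a fall in interneurons could hardly be seen.

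**Figure D3:**
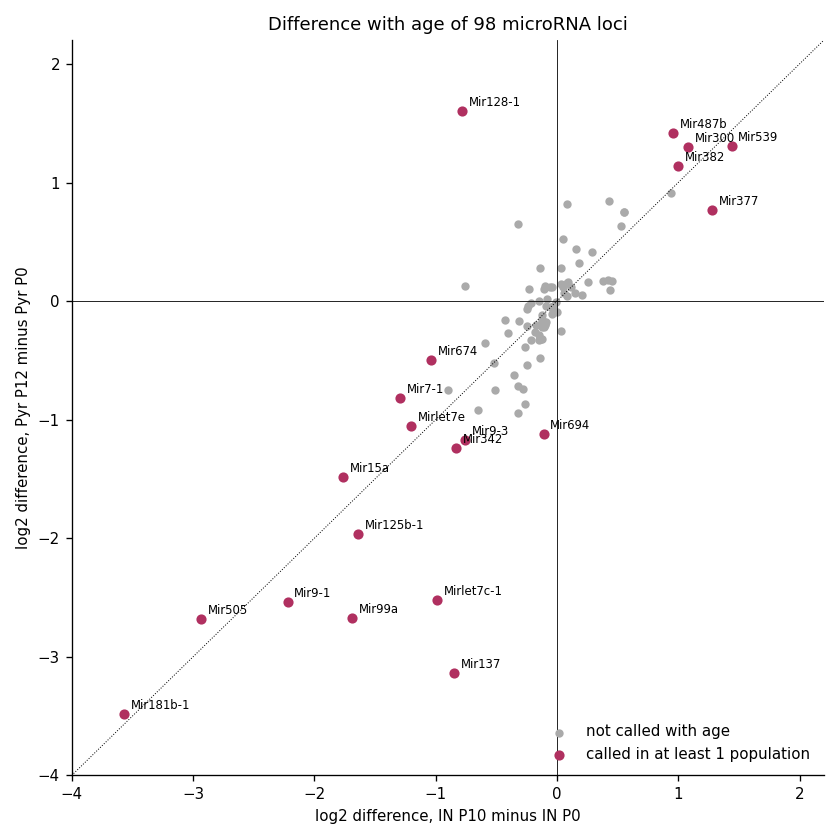
Log2 difference with age of each of the 98 loci in interneurons (IN P10 minus IN P0, horizontal) and pyramidal cells (Pyr P12 minus Pyr P0, vertical); red points were called in at least 1 population and the dotted line marks equal differences. Most called loci lie near the line, while Mir128-1, Mir137 and Mirlet7c-1 lie away from it. In interneurons Mirlet7c-1 had no array above background and Mir137 had 1, in IN P0, so a fall there could hardly be seen.

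Members called higher at the later age came almost all from the Dlk1 to Dio3 domain, an imprinted region of chromosome 12 whose maternally expressed transcripts Meg3 and Rian run through or beside large microRNA clusters. Of its 40 measured loci, 23 were members. In each population 4 of the 23 were called higher with age and 0 lower (at an unadjusted limma p under 0.05, 16 higher in each and 1 and 2 lower), where 4.19% and 5.68% of all probe sets, and 6.83% and 9.07% of those at the level of 8, were called higher. The median log2 difference was 0.42 in interneurons and 0.41 in pyramidal cells over the 23 members, which a high mean in one group had chosen, and 0.22 and 0.18 over all 40 loci. No locus of the domain below the level was called with age, so 10.0% of the 40 were called higher in each population. The domain held all 4 members called higher in interneurons and 4 of the 5 called higher in pyramidal cells, Mir128-1 being the other. Mir539 was at 7.20, 7.04 and 7.14 in IN P0 and 8.41, 8.61 and 8.68 in IN P10, and at 7.43, 7.49 and 7.40 in Pyr P0 and 8.71, 8.72 and 8.82 in Pyr P12. No IN P0 array was above background, so the difference in interneurons was at least 2.52-fold, and in pyramidal cells it was 2.47-fold.

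Mir382 was at 7.38, 7.76 and 7.80 in IN P0, 8.56, 8.55 and 8.83 in IN P10, 7.91, 8.22 and 7.80 in Pyr P0 and 9.04, 9.04 and 9.27 in Pyr P12. Mir487b had group means of 7.60, 8.56, 7.84 and 9.26 in the same order, and Mir300 of 6.52, 7.60, 6.91 and 8.21. Mir377 had group means of 7.41, 8.68, 7.48 and 8.26 and passed 2-fold in interneurons, as Mir487b did in pyramidal cells; neither was called in the contrast of the changes. In Mir382 the interneuron call rested on a difference close to 2-fold, and it was 0.87 on the log2 scale without IN P0 replicate A and 0.91 without IN P10 replicate C. For Mir300 no IN P0 array was above background, so the difference in interneurons was at least 1.29-fold, and in pyramidal cells 1 of 3 arrays at P0 was above it. The fitted log2 difference behind its call, which is no bound, was 1.08, and 0.98 without IN P10 replicate C.

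The differences were not spread evenly along the domain. In the cluster from Mir379 to Mir369, the 15 members had a median log2 difference of 0.53 in interneurons and 0.75 in pyramidal cells, and 14 of 15 were above 0 in each population. Over all 29 measured loci of this cluster the medians were 0.39 and 0.24, and 26 and 23 of 29 were above 0. These counts leave out the member Mir666, which lies between loci of the cluster but was not assigned to it. Its log2 differences were 0.18 ± 0.08 and 0.32 ± 0.08. In the cluster from Mir337 to Mir136, which lies at Rtl1, the 5 members had medians of 0.03 and 0.12 and all 7 measured loci of -0.04 and 0.05, and Mir127 was at -0.40 ± 0.11 and -0.27 ± 0.11. Between these clusters, Mir341 in Rian rose by 0.94 ± 0.11 and by 0.91 ± 0.11 (limma adjusted p = 8.58e-06 and 1.04e-05), under 2-fold in both. Within the Mir379 to Mir369 cluster, Mir667 was lower at the later age, with -0.15 ± 0.08 and -0.33 ± 0.08. The long RNAs of the domain, added to the genes after these values were seen, were measured by their own probe sets. Meg3 rose by 0.71 ± 0.09 and by 0.69 ± 0.09 (limma adjusted p = 1.36e-05 and 1.60e-05), and Rian rose by 0.95 ± 0.26 and by 0.77 ± 0.26 (limma adjusted p = 0.00863 and 0.0247). The Rian arrays overlapped in pyramidal cells, with 9.29, 9.54 and 9.65 in Pyr P0 and 9.51, 10.42 and 10.86 in Pyr P12. Dlk1, a coding gene of the domain, differed by 0.06 ± 0.07 and -0.12 ± 0.07 (limma adjusted p = 0.598 and 0.173).

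**Figure D4:**
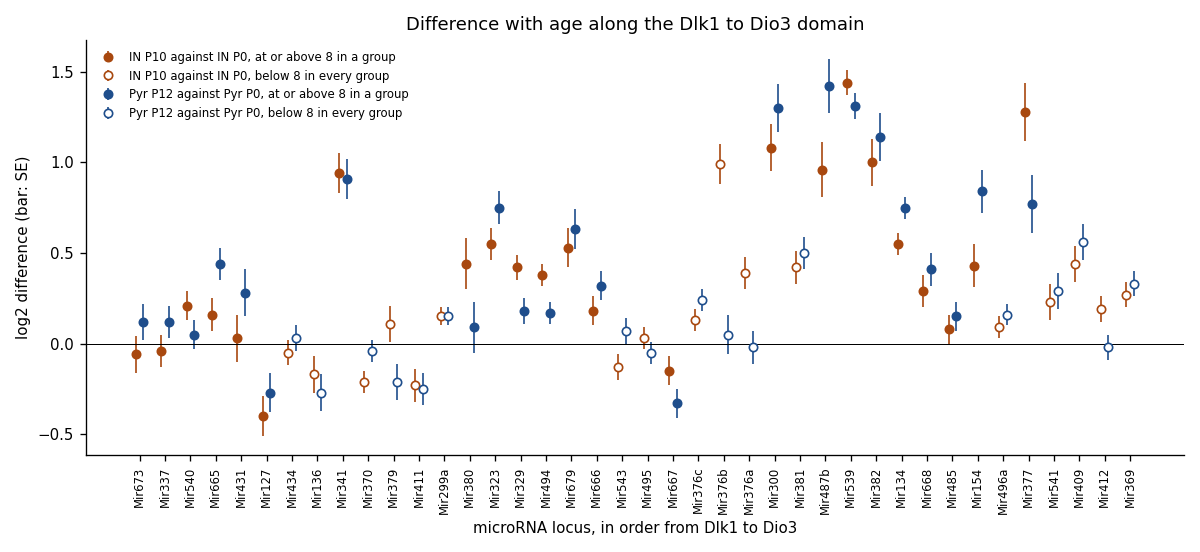
Log2 difference with age (points; bars are SE) of the 40 measured microRNA loci in their order from Dlk1 to Dio3, in interneurons (brown) and pyramidal cells (blue); filled points are loci at or above 8 in at least 1 group. Mir487b, Mir539 and Mir382 have differences of about 1 or more in both populations, Mir300 starts from values below background, and the loci from Mir337 to Mir431 lie closer to 0.

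Where a locus lies inside another gene on the same strand, that gene was compared with it on the same arrays. Of the 98 members, 29 had such a host, of which 24 were measured. For a further 25 the strand of the surrounding gene was not known from the tables used here, 3 lay opposite to a gene, and 41 lay in no other gene. Over the 12 arrays, which fall into 4 groups, the correlation of locus and host had a median Pearson r of 0.681 in the 24 pairs and ranged from -0.567 (Mir139 and Pde2a) to 0.963 (Mir128-1 and R3hdm1). In 67 pairs of a host with a locus below the level of 8, the median was 0.225 and the range -0.791 to 0.978. R3hdm1 rose by 0.67 ± 0.06 in pyramidal cells (limma adjusted p = 4.22e-07) and fell by 0.17 ± 0.06 in interneurons (limma adjusted p = 0.0301), the same directions as Mir128-1 with smaller differences. Arpp21, a regulator of messenger RNA in projection neurons, rose by 0.64 ± 0.16 in pyramidal cells (limma adjusted p = 0.00347) while Mir128-2 inside it was lower at P12. Arpp21 was lower in interneurons than in pyramidal cells by 6.37-fold at P0 and 18.9-fold at the later ages (limma adjusted p = 1.87e-08 and 1.16e-10).

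Host and locus differed in size in some of the other pairs. Mir100hg, the long RNA that holds Mir125b-1, fell 2.63-fold in interneurons and 3.04-fold in pyramidal cells (limma adjusted p = 5.54e-08 and 9.85e-09), with r = 0.945. On the log2 scale these falls were -1.40 and -1.60. The fitted log2 differences of Mir125b-1, which are no bounds, were similar, with -1.64 and -1.96. Mcm7, a replication licensing factor, fell 4.90-fold and 3.66-fold (limma adjusted p = 3.71e-09 and 1.69e-08), whereas the log2 differences of Mir106b were -0.52 in both populations and those of Mir25 were -0.24 and -0.04. Hnrnpk fell by 0.35 ± 0.06 and by 0.36 ± 0.06 (limma adjusted p = 3.14e-04 and 2.00e-04), and Mir7-1 in it differed by -1.29 and -0.82. Mir99ahg, a long RNA named as the host of Mir99a and added after these values were seen, was lower in IN P0 than in Pyr P0 by 1.10 ± 0.09 on the log2 scale (limma adjusted p = 4.12e-07), and fell with age by 0.77 ± 0.09 in interneurons and 0.93 ± 0.09 in pyramidal cells.

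The genes that make and use microRNAs were not chosen by their values, and 27 of 28 were measured. With age, 2 of 27 (7.41%) fell more than 2-fold in interneurons and 3 (11.1%) in pyramidal cells. Of all probe sets 2.85% and 3.48% were called lower, and of those at the level of 8, 4.5% and 5.55%. The difference from these shares was not tested. None rose by more, where 4.19% and 5.68% of all probe sets, and 6.83% and 9.07% of those at the level of 8, were called higher. SAM gave the same counts, but 11517 and 10096 probe sets passed its q there, so the fold mostly set them. At an unadjusted limma p under 0.05, 2 and 5 of the processing genes were higher and 18 and 15 were lower. Their median log2 difference was -0.40 in interneurons and -0.16 in pyramidal cells. Drosha, the nuclear nuclease, fell by 0.24 ± 0.05 and by 0.16 ± 0.05 (limma adjusted p = 0.00136 and 0.0184), and its partner Dgcr8 fell by 0.76 ± 0.06 and by 0.73 ± 0.06 (limma adjusted p = 1.91e-07 and 2.43e-07). The export receptor Xpo5 differed by -0.13 ± 0.06 and -0.04 ± 0.06 (limma adjusted p = 0.0752 and 0.596). Dicer1, the cytoplasmic nuclease, fell by 0.51 ± 0.06 and by 0.43 ± 0.06 (limma adjusted p = 1.26e-05 and 5.62e-05).

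Of the Argonaute proteins, Ago4 fell 2.63-fold in interneurons, from 9.95, 9.99 and 9.94 to 8.60, 8.58 and 8.51, and 2.32-fold in pyramidal cells, from 9.92, 9.84 and 9.68 to 8.49, 8.66 and 8.65 (limma adjusted p = 1.87e-09 and 4.27e-09). Ago2, the Argonaute that can cut its target, rose by 0.17 ± 0.05 and by 0.45 ± 0.05 (limma adjusted p = 0.00954 and 2.77e-06). Prkra, a binding partner of Dicer1, was at 9.66, 9.47 and 9.50 in IN P0, 9.44, 9.48 and 9.34 in IN P10, 9.55, 9.55 and 9.38 in Pyr P0 and 7.97, 8.01 and 8.02 in Pyr P12. It fell 2.81-fold in pyramidal cells (limma adjusted p = 4.57e-10), with a log2 difference of -0.12 ± 0.07 in interneurons (limma adjusted p = 0.168). The difference between the populations in this change was 1.37 ± 0.10 (limma adjusted p = 1.83e-07).

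Tut4, which adds uridines to let-7 precursors, fell 2.58-fold in interneurons (limma adjusted p = 2.86e-09) and by 0.87 ± 0.07 on the log2 scale in pyramidal cells (limma adjusted p = 1.52e-07). Srsf3, a splicing factor that also aids Drosha, fell 2.37-fold in pyramidal cells (limma adjusted p = 7.80e-09) and by 0.94 ± 0.07 in interneurons (limma adjusted p = 1.79e-07). Lin28b, which binds let-7 precursors, was at 8.06, 8.26 and 8.48 in IN P0 and 7.26, 7.26 and 7.11 in Pyr P0, a 2.08-fold difference (limma adjusted p = 2.23e-06) that was 0.95 on the log2 scale without IN P0 replicate C. The Pyr P0 values lay near the background of these arrays, which was 7.17, 7.13 and 7.38, so the size of this difference is limited by background. Lin28b was lower at the later age by 0.68 ± 0.10 in interneurons (limma adjusted p = 6.17e-05). Lin28a stayed between 7.87 and 8.18 on all arrays.

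**Figure D5:**
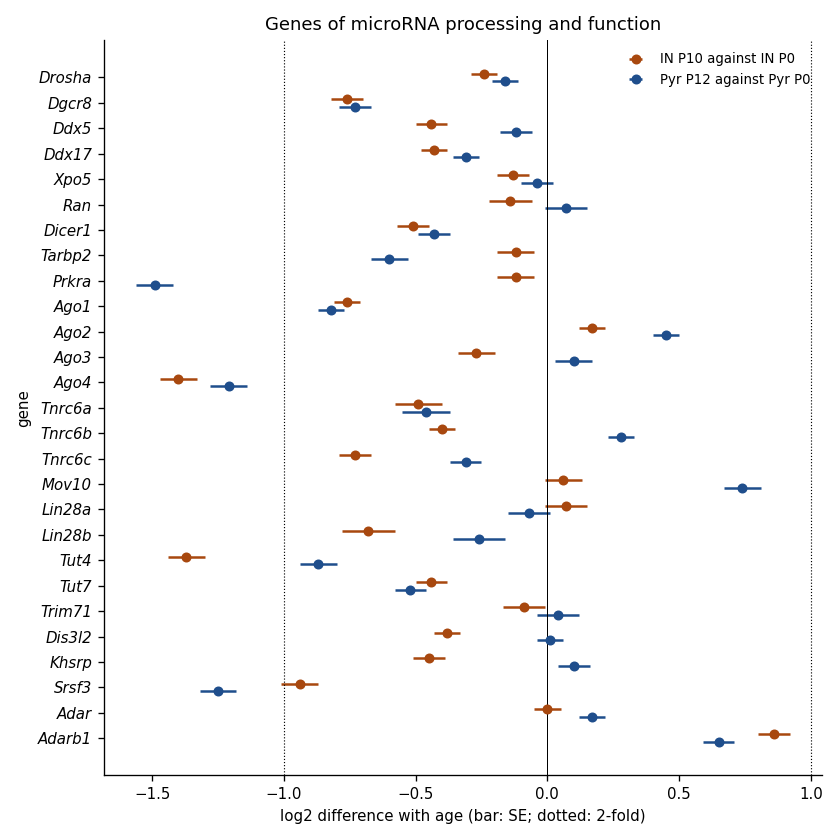
Log2 difference with age (points; bars are SE) of 27 genes of microRNA processing and function in interneurons (brown, IN P10 minus IN P0) and pyramidal cells (blue, Pyr P12 minus Pyr P0); dotted lines mark 2-fold. Ago4 lies left of the 2-fold line in both populations, Tut4 in interneurons only, and Prkra and Srsf3 in pyramidal cells only.

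The loci typical of oligodendrocytes differed by less than 2-fold between the groups. Mir219a-1, Mir219a-2 and Mir338, which promote oligodendrocyte differentiation, were all members. Their log2 differences from IN P0 to IN P10 ranged from 0.03 to 0.45, with Mir219a-2 at means of 7.58 and 8.04, and none was called in any comparison (at an unadjusted limma p under 0.05, 2 were higher in IN P10 than at P0). Of the 14 measured loci of the Mir17 to Mir92 cluster and its paralogs, known from proliferating cells, 3 were members and 0 of the 3 were called by limma (at an unadjusted p under 0.05, 2 were lower with age in each population). Among all 14, Mir18 was called lower with age in both populations, Mir19b-1 and Mir20a in pyramidal cells, and Mir19b-1 in IN P0 against Pyr P0, named here after their values were seen. Their group means were 5.48 to 7.66, and the differences were at least 1.22-fold for Mir18 and 1.14-fold for Mir19b-1 from Pyr P0 to Pyr P12 and at least 1.25-fold for Mir19b-1 between the populations at P0. In the remaining calls neither group was above background.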

How the data were processed

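RNA of GFP+ cells sorted by FACS was amplified, labelled and hybridised to Affymetrix Mouse Gene 1.0 ST arrays, 3 per group. The deposited log2 values were made by the authors with Robust Multiarray Average (RMA), which corrects background, equalises arrays by quantiles and summarises the probes of a probe set; the version and the genome build are not given in the sources used here. The number of arrays limits precision. Gene symbols came from the annotation of the array platform: 21640 of 28192 had 1 gene symbol, 1321 had several and 5231 had none; 37 microRNA probe sets with several symbols were not used. One limma model (limma 3.58.1, R 4.3.3; figures in Python 3.11.15 and matplotlib 3.10.9) held the 4 groups without a block, and p-values were adjusted by Benjamini-Hochberg over 22961 probe sets with a symbol. Calls needed adjusted p under 0.05 and a fold over 2. SAM, which the study's methods name, was rebuilt as an alternative with all 20 label permutations of 3 against 3 arrays, the mean number of false calls and the same thresholds. The replicates are labelled biological, but p-values measure only the spread between these samples. A group with no array above background gives a lower bound, computed against the higher of background and its own value on each array. Host genes span the locus on the same strand in RefSeq (GRCm38.p6). Clusters are loci of one strand at most 10000 bases apart. Named were the 5 largest called differences per direction and comparison, loci next to the level of 8, microRNAs of neurons, those sharing a seed or cluster, and processing genes that were called or are core factors. The members and lists were chosen with earlier results of these data known. The fit was tested on simulated data.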

Additional observations from a re-analysis of the deposited data

Results flagged for a closer look

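The direction of the difference with age was opposite in the populations for Mir128-1, without overlap between arrays: in interneurons it was lower at P10 and in pyramidal cells higher at P12, and the change in interneurons minus that in pyramidal cells was -2.38 on the log2 scale. Since one group was below the level that chose the loci, this difference is given as not tested. The mean of the pyramidal markers was also lower in IN P10 (7.70 to 7.78) than in IN P0 (9.47 to 10.02). Its part in the Mir128-1 difference was not tested. For Prkra the change with age differed between the populations by 1.37 on the log2 scale (limma adjusted p = 1.83e-07), lower in 3 of 3 Pyr P12 arrays than in any Pyr P0 array and overlapping between IN P0 and IN P10.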

How the results depend on the processing

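The number of loci at the level was 98 at a level of 8 and 51 at a level of 9. At a fold over 1.5 and at no fold threshold, the loci called were 24 and 47 (IN P10 against IN P0), 34 and 59 (Pyr P12 against Pyr P0), 6 and 32 (IN P10 against Pyr P12), 10 and 16 (IN P0 against Pyr P0) and 10 and 13 (age by population), and the processing genes 8 and 19, 9 and 19, 3 and 18, 1 and 7, and 3 and 13. The shares of all probe sets at these fold thresholds were not counted. At a level of 9, 8, 11 and 2 loci were called with age in interneurons, in pyramidal cells and in age by population. SAM called 0 loci and 0 processing genes in IN P0 against Pyr P0, where limma called 4 and 1, but its smallest possible q there was 0.0741, so this says nothing of those calls. In the other comparisons that q was 0.0369 to 0.0436 and 10096 to 11803 probe sets passed it, so the fold mostly set the SAM counts. Leaving out 1 array gave 11 to 14, 17 to 18, 1 to 1, 4 to 5 and 3 to 6 loci, and 2 to 3, 3 to 3, 1 to 1, 0 to 1 and 1 to 1 processing genes. Fitted with the replicate block, the counts were 13, 17, 1, 4 and 4 loci and 2, 3, 1, 1 and 1 genes, as without it; same-letter samples correlated at -0.18 to 0.19 in their deviations from group means, so the letters were not read as pairs. Of 3120 refits of single named genes, 5 lost and 9 gained a call and 0 reversed.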
